A study of Rattus norvegicus with 15 samples.

Results

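Primary astrocytes exposed to H2O2 and then given lipid-encapsulated mitochondrial RNA (MitoCoat-mRNA) were compared with astrocytes exposed to H2O2 alone, in 6 of the 15 bulk RNA-seq libraries of the series. The members were taken from the sample labels, and each group had 3 libraries. The cells were cortical astrocytes cultured from newborn Sprague Dawley rats and labelled WT. All 6 cultures received 100 µM H2O2 for 30 min, and RNA was collected 6 h after the later treatment, which followed H2O2 by 24 h. MitoCoat-mRNA is RNA extracted from a mitochondria-enriched fraction of cryopreserved rat placenta and enclosed in the lipids DOTAP and DOPE, a cationic and a fusogenic lipid. The other groups, used only where they bear on this comparison, were vehicle control, H2O2 followed by the same fraction uncoated (mitochondria), and H2O2 followed by the lipid-coated fraction (MitoCoat), each with 3 libraries. No group had received the lipids without cargo, so that the RNA and its lipid cannot be told apart. The study calls its transcriptomic replicates biological, whereas the labels do not say whether the RNA samples of a group came from separate cultures, so p-values are stated for the spread between these samples.

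Astrocytes supply neurons with metabolites and are a main site of antioxidant defence in the brain. The mitochondrial chromosome encodes subunits of respiratory complexes I, III and IV and of ATP synthase, together with the tRNAs and rRNAs that mitochondrial ribosomes need. The remaining subunits are encoded in the nucleus and translated in the cytosol, partly at the mitochondrial surface. The mitochondria-enriched fraction of the study also carried nuclear-encoded mRNA, and how this came about was not tested here. The comparison therefore addressed whether encapsulated RNA left a trace in the transcriptome of stressed astrocytes, and how large a difference these libraries could have missed.

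Total counts ranged from 35315654 to 41374789 in the H2O2 libraries and from 40539862 to 44527847 in the MitoCoat-mRNA libraries. H2O2 replicate 1 had the lowest total of these 6 and the most genes with a count, 19559, against 18789 to 19101 in the other 5. The files list genes by Ensembl identifier without symbols, and 0 of the 32552 identifiers could be matched to a symbol in the reference used here (GRCr8). The study itself names genes by symbol. Markers of astrocytes and of other cell types, RNA-sensing genes and stress genes are therefore not analysed here. The genes were described instead by the classes that the files themselves define. These were the mitochondrial chromosome, transcript abundance, and the difference between organelle recipients and control in libraries outside the comparison. In bulk libraries, fewer cells of a type and less RNA per cell cannot be told apart.

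No gene was called between MitoCoat-mRNA and H2O2 libraries once p-values were adjusted. Of 15506 genes that passed the filter on low counts, 0 differed at an adjusted p under 0.05 (edgeR's quasi-likelihood test with Benjamini-Hochberg adjustment), which is 0% of the genes tested, and the smallest adjusted p was 0.9996. At an unadjusted p under 0.05, 184 genes had higher and 279 had lower values in MitoCoat-mRNA, 463 or 2.99% of those tested. DESeq2's Wald test on the same libraries also called 0 genes, with a smallest adjusted p of 0.118 and 458 genes at an unadjusted p under 0.05. With the replicate number as a block, edgeR called 0 genes and 761 had an unadjusted p under 0.05, or 4.91%. For comparison, H2O2 against control called 465 genes higher and 660 lower by the same test, or 7.19% of the genes tested.

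A p that misses the threshold does not show that a gene is equal in both groups, so the 95% interval of each fold change was used to say how large a difference the data allow. The interval lay wholly within 1.5-fold in either direction for 9799 genes (63.2%) and within 2-fold for 12232 (78.9%). The median log2 fold change over all genes was -0.0031, and the central 50% of genes lay between -0.12 and 0.095. Precision depended on abundance. Among 7189 genes of 10 to 100 CPM (counts per 1000000 counts after TMM scaling), 92.9% were bounded within 1.5-fold and 99.5% within 2-fold. Among 1942 genes of 100 to 1000 CPM the shares were 97.7% and 99.8%, and among 97 genes of 1000 CPM or more they were 88.7% and 99.0%. That last group mixes nuclear and mitochondrially encoded genes. ND1, ND2, COX2, ATP6, COX3, ND5 and CYTB, described below, were among its members not bounded within 1.5-fold. For 3950 genes of 1 to 10 CPM the shares were 28.8% and 75.3%. For 2328 genes under 1 CPM they were 0% and 3.01%, and their intervals typically reached 2.32-fold to either side of the estimate. A 2-fold difference was therefore outside the interval for nearly every gene above 10 CPM, and for 70 of the 2328 genes under 1 CPM. Whether depth or the number of libraries set the width for scarce genes was not tested.

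**Figure D1:**
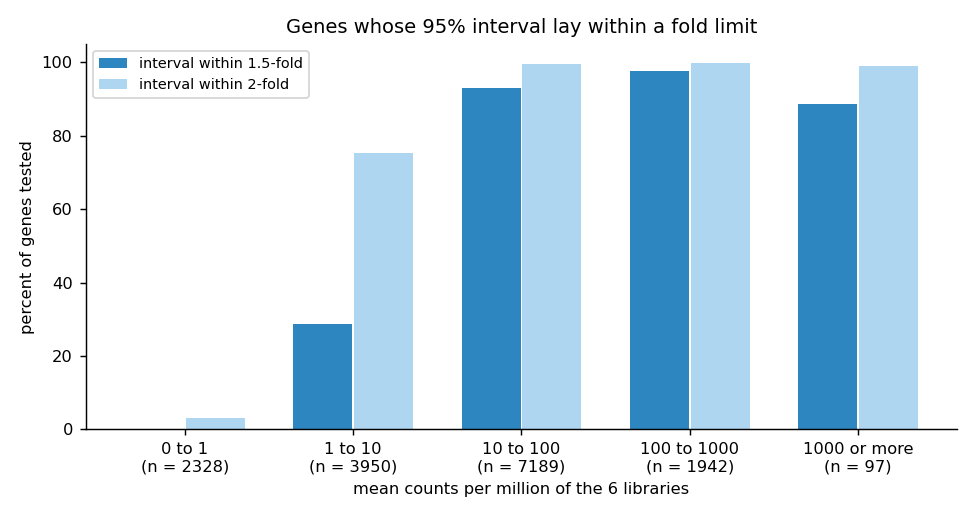
Percent of tested genes (vertical axis) whose 95% interval of the fold change between MitoCoat-mRNA and H2O2 lay within 1.5-fold or 2-fold, by mean CPM of the 6 libraries (horizontal axis, with the number of genes). The share within 1.5-fold was 0% below 1 CPM, 28.8% from 1 to 10 CPM and 92.9% from 10 to 100 CPM.

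The mitochondrially encoded mRNAs, the class closest to the delivered cargo by name, had no higher level with MitoCoat-mRNA. The 13 genes on the mitochondrial chromosome that encode proteins were identified by their position, strand and length, since the files give no symbols. All 13 had log2 fold changes below 0, from -0.28 to -0.04 with a median of -0.20, and 0 of 13 had an unadjusted p under 0.05, against 2.99% of all genes tested. The groups overlapped for all 13, and the smallest unadjusted p was 0.195 (edgeR's quasi-likelihood test). The interval was within 2-fold for all 13 and within 1.5-fold for 2, COX1 and ND3.

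COX1, the catalytic core of complex IV (cytochrome c oxidase), was the most abundant of them. It had 12485, 15741 and 12187 CPM in H2O2 replicates 1 to 3 and 15068, 11673 and 11672 CPM in MitoCoat-mRNA replicates 1 to 3. Each group thus had 1 higher library and a pair of lower ones, and the means were 13471 ± 1972 and 12804 ± 1960 CPM (SD, n = 3 each). The fold was 0.951, with an interval of 0.768 to 1.18. COX2 and COX3, which complete the core of complex IV, had folds of 0.922 (interval 0.65 to 1.31) and 0.888 (0.642 to 1.23).

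Among the complex I subunits, ND5 had the largest difference of the 13. It had 1553, 1687 and 1059 CPM with H2O2 and 1457, 1180 and 904 CPM with MitoCoat-mRNA, so that H2O2 replicate 3 lay below 2 of the MitoCoat-mRNA libraries. Its fold was 0.824, with an interval of 0.603 to 1.13 and an unadjusted p of 0.195 (edgeR). ND3 had 170, 208 and 150 CPM with H2O2 and 195, 156 and 161 CPM with MitoCoat-mRNA, values that interleave, and a fold of 0.971 (interval 0.787 to 1.20). The remaining complex I subunits ND1, ND2, ND4L, ND4 and ND6 had folds from 0.833 to 0.971. The annotated spans of ND4L and ND4, of ATP8 and ATP6, and of ND5 and ND6 overlap, and reads in such overlaps may have been lost or split by the authors' counting.

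CYTB, the only mitochondrially encoded subunit of complex III, had 4613, 5633 and 3728 CPM with H2O2 and 4885, 3879 and 3372 CPM with MitoCoat-mRNA. The ranges overlapped, with both ends lower in MitoCoat-mRNA, and the fold was 0.868 (interval 0.665 to 1.13). ATP6 and ATP8, the ATP synthase subunits, had folds of 0.854 (0.545 to 1.34) and 0.855 (0.514 to 1.42), the widest intervals of the 13 together with ND1 and ND4. ATP8 itself had 628, 775 and 344 CPM with H2O2 and 679, 521 and 294 CPM with MitoCoat-mRNA, so that libraries within the H2O2 group differed 2.25-fold. The lower mean of MitoCoat-mRNA moved with single libraries. H2O2 replicate 2 was the highest library for 12 of the 13 genes and MitoCoat-mRNA replicate 3 the lowest for 11.

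Without H2O2 replicate 2, 9 of the 13 log2 fold changes were above 0 (-0.14 to 0.17), and without MitoCoat-mRNA replicate 3, 6 were. Without H2O2 replicate 3 or MitoCoat-mRNA replicate 1, all 13 were below 0, with medians of -0.34 and -0.39, and the smallest unadjusted p-values were 0.0208 (ND4L) and 0.0494 (ND5, edgeR). With the replicate number as a block, all 13 remained below 0 and all 13 intervals lay within 1.5-fold. In that fit ND5 and ND4L had unadjusted p-values of 0.0246 and 0.0495 (edgeR with the block). Both genes had lower values in MitoCoat-mRNA in all 3 same-numbered pairs. The median difference over the 13 genes between same-numbered libraries was 0.11, -0.54 and -0.13 on the log2 scale, so that the first pair went the opposite way to the other two.

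**Figure D2:**
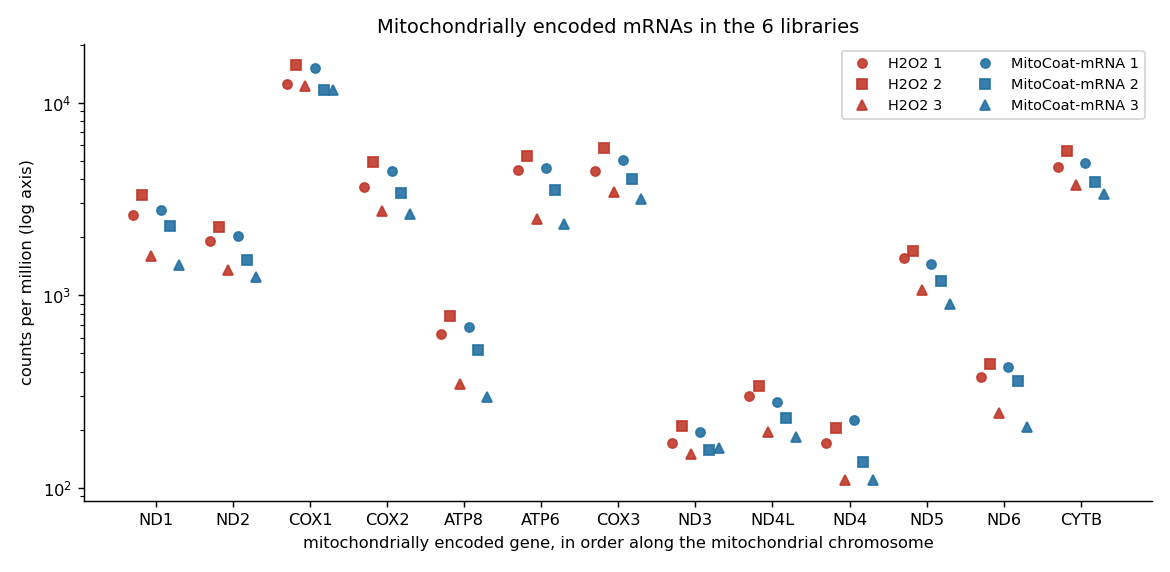
CPM (log axis) of the 13 mitochondrially encoded mRNAs in the order of the mitochondrial chromosome, with red symbols for H2O2 and blue symbols for MitoCoat-mRNA libraries, and the shape giving the replicate number. The groups overlapped for all 13 genes, and H2O2 replicate 2 was the highest library for 12 of them.

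The share of all counts on the mitochondrial chromosome showed the same picture. It was 3.81%, 4.61% and 2.97% in the H2O2 libraries and 4.20%, 3.27% and 2.81% in the MitoCoat-mRNA libraries. The means differed by -0.368 percentage points, which was within the spread of either group (two-sided exact permutation test, p = 0.6, where 3 against 3 libraries cannot go below 0.1). This difference was 0.0379 without H2O2 replicate 2 and ran from -0.782 to -0.0594 with any other single library left out. Control libraries had 2.87% to 4.05%, mitochondria libraries 3.18% to 3.47% and MitoCoat libraries 3.60% to 4.48%. Tested directly, MitoCoat-mRNA differed from MitoCoat by -0.654 percentage points (exact permutation p = 0.3) and from mitochondria by 0.092 (exact permutation p = 0.9). Gene by gene, 0 of the 13 were called between MitoCoat-mRNA and either organelle group (edgeR). All 13 intervals lay within 2-fold in both contrasts, with log2 fold changes of -0.42 to -0.09 against MitoCoat and 0.01 to 0.32 against mitochondria. Of the 22 mitochondrial tRNA genes, which polyA-selected libraries capture poorly, 17 passed the filter and their median log2 fold change was -0.22. Between same-numbered libraries 1, 2 and 3 the median difference of the tRNA genes was -0.068, -0.46 and -0.21 on the log2 scale. For 8 of these 17 genes the interval lay within 2-fold.

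Most of the abundant nuclear transcripts could be bounded closely. The 100 most abundant ranged from 902 to 14471 CPM and held 21.3% to 22.6% of the counts of each library. Of these 100 genes, 96 were bounded within 1.5-fold and 99 within 2-fold, compared with 63.2% and 78.9% of all genes tested. Their log2 fold changes had a median of -0.0056 and, leaving out 1 gene, lay between -0.26 and 0.23. For 7 of the 100 there was no overlap between the groups, against 8.84% of all genes (4.3% with higher and 4.54% with lower values in MitoCoat-mRNA), and 3 had an unadjusted p under 0.05, against 2.99%. Both shares were near the background. With the block, 5 had an unadjusted p under 0.05, against 4.91% of all genes. Among the 1000 most abundant nuclear genes, 974 were bounded within 1.5-fold and 997 within 2-fold.

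The gene left out above was ENSRNOG00000062127, an unspliced locus of 1 exon block on chromosome 1 (Rnor6.0, chr1:221154561-221156910), which was chosen after its values were seen. It had 3164, 2001 and 1475 CPM with H2O2 and 1690, 1284 and 1303 CPM with MitoCoat-mRNA. H2O2 replicate 3 lay within the MitoCoat-mRNA range and H2O2 replicate 1 far above it. Its log2 fold change was -0.63 (interval -1.18 to -0.09, unadjusted p = 0.0268, adjusted p = 0.9996, edgeR). Leaving out single libraries gave log2 fold changes from -0.85 to -0.29, the latter without H2O2 replicate 1 (unadjusted p = 0.121, edgeR). With the block, its unadjusted p was 0.00184 and it was still not called.

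**Figure D3:**
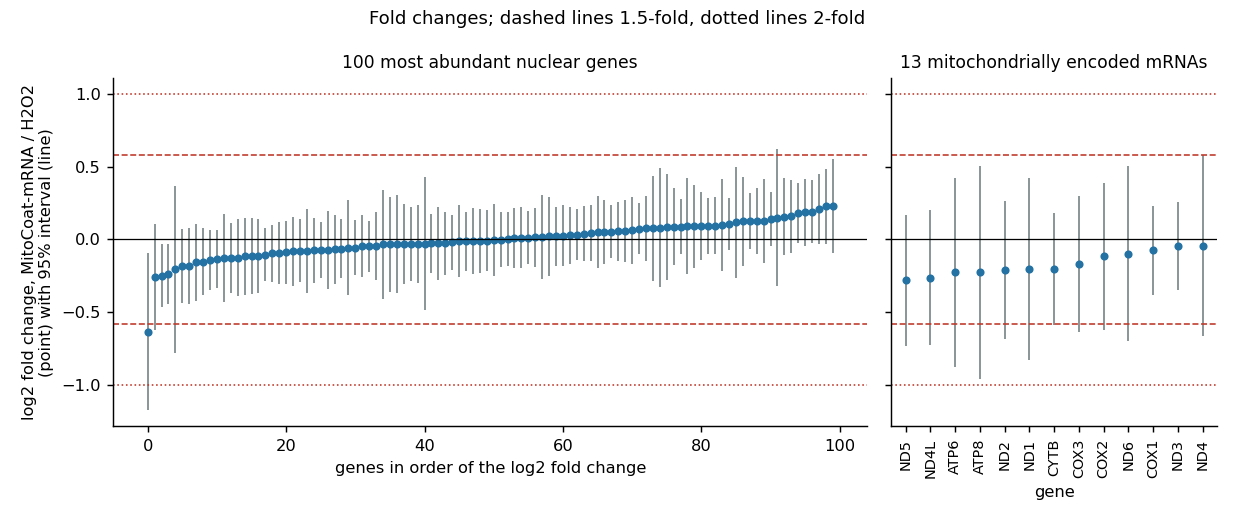
Log2 fold change of MitoCoat-mRNA over H2O2 (points) with its 95% interval (lines) for the 100 most abundant nuclear genes and the 13 mitochondrially encoded mRNAs, each in order of the fold change; dashed and dotted lines mark 1.5-fold and 2-fold. Intervals of 96 of 100 nuclear and 2 of 13 mitochondrial genes lay inside the 1.5-fold lines, and 1 nuclear gene crossed the 2-fold line.

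Transcripts that astrocytes showed after whole organelles but not in the control state were read next, since the encapsulated RNA was extracted from the same kind of fraction. Genes were sought with 0 counts in all 3 control libraries and at least 5 counts in each of the 6 libraries that had received mitochondria or MitoCoat, a choice that used no library of the present comparison. There were 13 such genes, 8 on chromosome 17 and 3 on chromosome 1. They totalled 1916 counts in the mitochondria and 5862 counts in the MitoCoat libraries, against 30 counts in the H2O2 and 19 in the MitoCoat-mRNA libraries. All 30 counts with H2O2 belonged to 1 gene on chromosome 8, which had 20, 8 and 2 counts with H2O2 and 0, 2 and 9 with MitoCoat-mRNA and was therefore also present without any cargo. With a minimum of 1 count in place of 5, 39 genes met the rule, and they held 80, 68 and 54 counts in the H2O2 libraries and 64, 65 and 75 in the MitoCoat-mRNA libraries, ranges that overlap.

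Setting aside the gene counted with H2O2 leaves 12 of the 13 genes, a choice that does use the H2O2 libraries and fixes their counts at 0. Such a 0 allows up to 0.0725 to 0.0849 CPM per library, by counting error alone and if every count is a separate fragment. In MitoCoat-mRNA replicates 1 to 3 they had 2, 6 and 0 counts, spread over 3 genes with at most 2 counts of a gene in a library. The same 12 genes had 240 to 816 counts in each mitochondria library and 483 to 3244 in each MitoCoat library. Nearly all low counts in these files were even numbers, so that 2 counts may be a single sequenced fragment, and the limit just given would then be higher. The counts after whole organelles were fixed from below by the choice of genes and are given for scale. How much of each transcript the encapsulated RNA held when it was applied was not analysed here. The amounts of RNA given as organelles and as MitoCoat-mRNA were not matched by any label, so the counts are side by side and not a comparison of uptake.

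Genes that differed between recipients of whole organelles and control were then followed in the MitoCoat-mRNA comparison. To keep the choice independent, they were taken from the mitochondria and MitoCoat libraries against control libraries, none of which enters MitoCoat-mRNA against H2O2. That contrast spans H2O2 as well as the organelles, since the recipients had been exposed to H2O2 and the controls had not. It called 2317 genes higher (14.3% of those tested) and 2644 lower (16.3%). H2O2 against control called 397 of the raised (17.1%) and 608 of the lowered genes (23.0%) in the same direction. The lists therefore do not separate a response to organelles from one to H2O2.

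The median log2 fold change in MitoCoat-mRNA against H2O2 was 0.051 for the 2245 raised genes that could be tested here and -0.076 for the 2592 lowered genes, with -0.0031 for all genes. Of the raised genes, 59 had an unadjusted p under 0.05 with higher and 11 with lower values in MitoCoat-mRNA, or 2.63% and 0.49%. Of the lowered genes, 6 had higher and 110 lower values, or 0.231% and 4.24%. Over all genes these shares were 1.19% and 1.8%. The sign was positive for 66.5% of the raised and 28.7% of the lowered genes, against 49.2% of all. For genes over 2-fold higher or lower with organelles against control, the medians here were 0.087 (486 genes) and -0.21 (869 genes) on the log2 scale. Of the 2245 raised and 2592 lowered genes, 76.0% and 62.5% were bounded within 1.5-fold, against 63.2% of all genes. No gene of either list was called.

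This lean rested unevenly on the libraries. The median difference of the raised genes was 0.16, -0.033 and 0.033 between libraries numbered 1, 2 and 3, and that of the lowered genes was -0.21, 0.043 and -0.071, so that the second pair had the opposite sign in both lists. Relative to the mean of the 6 libraries, H2O2 replicate 1 stood furthest apart, with a median of -0.097 over the raised and 0.13 over the lowered genes. The MitoCoat-mRNA libraries ranged from 0.0099 to 0.060 over the raised and from -0.057 to 0.0075 over the lowered genes, and H2O2 replicate 2 lay at 0.044 and -0.042. Without H2O2 replicate 1, the raised genes had 33 higher and 19 lower, and the lowered genes 20 higher and 59 lower, at an unadjusted p under 0.05 (edgeR). These were 1.46% and 0.843% of the raised and 0.77% and 2.27% of the lowered genes, against 1.13% and 1.28% of all genes in that fit. The count of raised genes with higher values was also 36 without MitoCoat-mRNA replicate 1 and 34 without MitoCoat-mRNA replicate 3, and 130 without H2O2 replicate 2, or 1.60%, 1.51% and 5.78% of those genes, against 1.17%, 0.659% and 1.74% of all genes in the same fits. The count of lowered genes with lower values was 61 without MitoCoat-mRNA replicate 3, or 2.33% against 1.39% of all genes. Over all fits without a single library, raised genes with lower values numbered 6 to 19 (0.266% to 0.843%), against 1.28% to 2.80% of all genes. Lowered genes with higher values numbered 3 to 20 (0.115% to 0.770%), against 0.659% to 2.21% of all genes. With the block the counts were 98 and 17 for the raised (4.37% and 0.757%) and 8 and 199 for the lowered genes (0.309% and 7.68%), against 1.92% higher and 2.99% lower over all genes. The part that H2O2 replicate 1, the library with the lowest depth, had in the lean was not tested beyond these values.

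**Figure D4:**
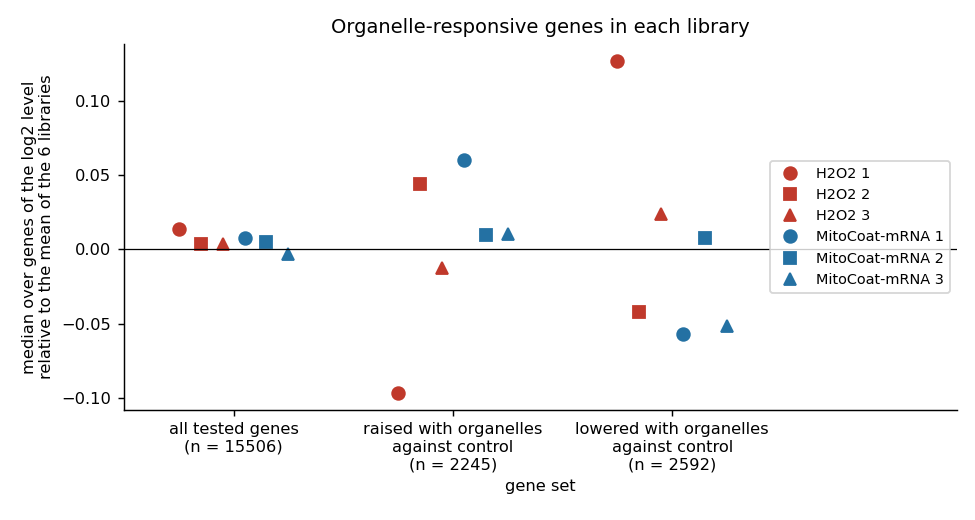
Median over genes of the log2 level relative to the mean of the 6 libraries, for all tested genes and for genes raised or lowered with organelles against control, with red symbols for H2O2 and blue symbols for MitoCoat-mRNA libraries and the shape giving the replicate number. H2O2 replicate 1 stood apart at -0.097 and 0.13, whereas H2O2 replicate 2 lay at 0.044 and -0.042.

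Genes that organelles altered relative to H2O2 share the H2O2 libraries with the present comparison, so their direction here is not independent and only the values are set side by side. Mitochondria against H2O2 called 290 genes higher and 270 lower (3.59% of those tested), and MitoCoat against H2O2 called 231 higher and 248 lower (3.05%). Of the 534 genes called with mitochondria that were tested here, 387 (72.5%) were bounded within 1.5-fold with MitoCoat-mRNA. Of the 454 called with MitoCoat, 335 (73.8%) were, against 63.2% of all genes. Taken in the direction of the organelle effect, their median log2 fold change was 0.75 with mitochondria and 0.80 with MitoCoat. In MitoCoat-mRNA against H2O2, the signed median of the same genes in that direction was 0.078 and 0.084.

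Direct tests placed MitoCoat-mRNA apart from both organelle treatments. Against MitoCoat, 222 genes were higher and 245 lower in MitoCoat-mRNA (2.98% of the genes tested), of which 34 and 132 by over 2-fold. Against mitochondria, 220 were higher and 334 lower (3.56%), of which 34 and 154 by over 2-fold. DESeq2 gave 865 and 909 calls in place of 467 and 554, and the block gave 396 and 1141. The same number of libraries and the same test that called 0 genes between MitoCoat-mRNA and H2O2 therefore called 467 and 554 between MitoCoat-mRNA and the organelle groups.

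Genes that H2O2 had altered against control likewise share the H2O2 libraries. The 465 genes raised by H2O2 had a median log2 fold change of 0.022 with MitoCoat-mRNA, and 364 (78.3%) were bounded within 1.5-fold. The 644 tested genes lowered by H2O2 had a median of -0.065, and 400 (62.1%) were bounded, against 63.2% of all genes. At an unadjusted p under 0.05 (edgeR), 16 raised genes were higher and 12 lower in MitoCoat-mRNA, or 3.44% and 2.58%. Of the lowered genes 6 were higher and 36 lower, or 0.932% and 5.59%, against 1.19% and 1.8% over all genes. With the block these counts were 33 and 13 (7.10% and 2.80%), and 6 and 54 (0.932% and 8.39%), against 1.92% and 2.99%.

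The largest consistent shifts were sought among 13178 genes of at least 1 CPM on average. The groups did not overlap for 593 genes with higher and 557 with lower values in MitoCoat-mRNA. Over all genes tested, without that limit, 8.84% did not overlap. Ranked by fold change among these, the 10 lowest had log2 fold changes of -1.43 to -0.94 and the 10 highest of 0.71 to 1.00. Their unadjusted p-values ran from 0.00471 to 0.0341 and from 0.00457 to 0.0965 (edgeR), and none was called. Of these 20 genes, 19 had a mean under 10 CPM, where intervals are wide and a ranking by fold change favours them. H2O2 replicate 1 was the highest library for all 10 of the lower genes and the lowest library for 6 of the 10 higher genes.

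The most reduced value belonged to ENSRNOG00000054817, a short gene on chromosome 6 (Rnor6.0, chr6:103452063-103452546). It had 6.34, 1.62 and 1.84 CPM with H2O2 and 1.41, 1.02 and 1.21 CPM with MitoCoat-mRNA. H2O2 replicate 1 stood far above all other libraries, while the remaining H2O2 libraries exceeded the MitoCoat-mRNA libraries only slightly. Its log2 fold change was -1.43 (SE 0.50, unadjusted p = 0.0200, adjusted p = 0.9996, edgeR), and leaving out single libraries moved it between -1.75 and -0.51. The value nearest 0 came without H2O2 replicate 1.

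At the other end, ENSRNOG00000053079 on chromosome 10 (chr10:975697-1003352) had 0.667, 0.896 and 0.630 CPM with H2O2 and 1.53, 1.84 and 1.03 CPM with MitoCoat-mRNA. The libraries held 24 to 36 counts of it with H2O2 and 46 to 81 with MitoCoat-mRNA, and the log2 fold change was 1.00 (SE 0.35, unadjusted p = 0.0198, adjusted p = 0.9996, edgeR). ENSRNOG00000033177 on chromosome 5 (chr5:70463171-70463546) had 0.890, 0.847 and 0.436 CPM with H2O2 and 1.73, 1.41 and 1.21 CPM with MitoCoat-mRNA, also with a log2 fold change of 1.00 (SE 0.37, unadjusted p = 0.0254, adjusted p = 0.9996, edgeR). Both genes were below 2 CPM in every library. Leaving out single libraries moved their log2 fold changes between 0.81 and 1.20 and between 0.74 and 1.17. The unadjusted p of the first was 0.0583 without H2O2 replicate 3 and 0.0839 without MitoCoat-mRNA replicate 2. That of the second was 0.0793 without H2O2 replicate 3, 0.0859 without MitoCoat-mRNA replicate 1 and 0.0505 without MitoCoat-mRNA replicate 2 (edgeR). Control libraries averaged 1.06 CPM for ENSRNOG00000053079 and 1.47 CPM for ENSRNOG00000033177, above the H2O2 means of 0.731 and 0.724 CPM.

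**Figure D5:**
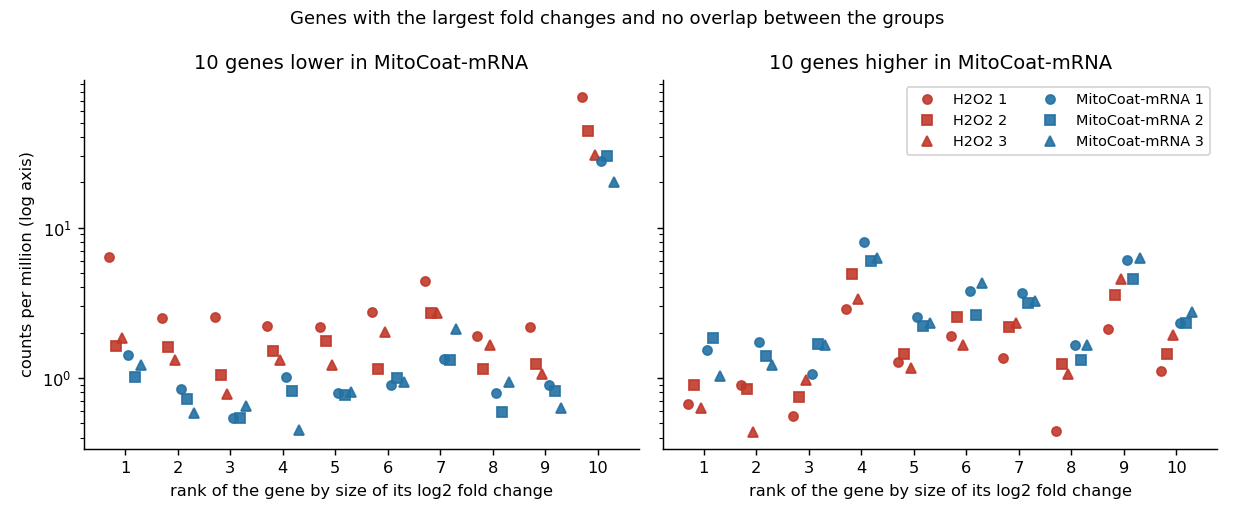
CPM (log axis) of the 10 genes with the lowest and the 10 with the highest log2 fold changes among genes of at least 1 CPM without overlap between the groups, with red symbols for H2O2 and blue symbols for MitoCoat-mRNA libraries and the shape giving the replicate number. H2O2 replicate 1 (red circles) was the highest library for all 10 genes in the left panel, and 19 of the 20 genes averaged under 10 CPM.

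Transcripts present in 1 group and absent from the other were counted last. At a minimum of 1 count, 31 genes were counted in all MitoCoat-mRNA libraries and in none with H2O2, and 69 in all H2O2 libraries and in none with MitoCoat-mRNA. Without H2O2 replicate 1 these numbers were 136 and 85. At a minimum of 3 counts they were 1 and 11, and 22 and 15 without that library. At a minimum of 5 counts they were 0 and 2, and 3 and 2 without it. At 10 counts they were 0 and 0, and 1 and 0 without it. Leaving out any H2O2 library eases both rules, so these numbers could only rise or stay. No other library was left out here for scale. Leaving out the mitochondrial chromosome, described above, the median log2 fold change of the 21 nuclear chromosomes tested lay between -0.026 and 0.030. The medians of 5 equal groups of genes by length lay between -0.018 and 0.0037.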

How the data were processed

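RNA of rat astrocytes was sequenced in 15 samples, 3 in each of 5 groups. After trimming by Trimmomatic 0.36 and alignment to Rnor6.0 (Ensembl annotation) by STAR 2.5.2b, the authors used featureCounts of Subread 1.5.2 on uniquely mapped exon reads. The deposited unit is the raw count per gene, not normalized. The sample descriptions mention mitochondria-enriched fractions and polyA RNA, whereas the paper describes RNA of the astrocytes, which was assumed here. Replicates were not pooled. Between 93.4% and 97.7% of counts from 1 to 20 were even, so reads of a pair appear to have been counted singly, and detection floors cover counting error only. A further file identical to that of 1 sample was not used.

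The tests used edgeR 4.0.16 under R 4.3.3 (filterByExpr, TMM, quasi-likelihood F test, two-sided, on the 6 samples of each comparison), and a gene was called where its adjusted p (Benjamini-Hochberg) was under 0.05. The 95% interval of a fold change came from its standard error in that fit and the moderated quasi-dispersion. Shares of counts were compared by exact permutation tests. A count of 0 allows up to 3 counts, given as CPM. Scripts were tested on simulated data. Alternatives were DESeq2 1.42.0 and edgeR on 6 or all 15 samples, RLE size factors, 2 other filters, the replicate block, each sample left out in turn, and counts divided by 2, the last chosen after seeing the data. Figures used matplotlib 3.10.9 in Python 3.11.15.

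Replicate numbers, which come from the sample titles, were checked for pairing by correlating, across genes, the libraries' deviations from their group means. It was 0.31, 0.13 and 0.42 for same-numbered libraries, all over 0.1, and -0.38 to 0.036 for the others. The samples were therefore taken as likely paired by number, but the reported fits, intervals and permutation tests did not use the pairing. Blocked values are given beside a result where they change a call or move a count by over 1.5 times. No 2 libraries of a group were copies of each other, with a variance between replicates relative to counting error of 11.5 to 65.7.

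The comparison, gene classes and lists were chosen with earlier results of these data known. The rule for named genes was to take the 10 highest and 10 lowest log2 fold changes without overlap among genes of at least 1 CPM, called genes, and members of 17 symbol lists. These lists (astrocyte, mitochondrial, RNA-sensing, stress and other genes) were not analysed here, since 0 identifiers matched the 47357 genes of the reference table (GRCr8), and classes defined by position, abundance and independent contrasts took their place. At most 2 identifiers that were higher and 2 that were lower are described as shifts. Mitochondrial rRNA genes were not analysed here. Mitochondrial gene names were assigned from gene order and strand, which are the same in all mammals, and from length.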

Additional observations from a re-analysis of the deposited data

How the results depend on the processing

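Genes called between MitoCoat-mRNA and H2O2 numbered 0 in every alternative run, with smallest adjusted p-values of 0.0843 (DESeq2 on all 15 samples) to 1.00. The count at an unadjusted p under 0.05 was 463 and moved to 761 with the replicate block. Leaving out single replicates gave 326 to 799, the highest without H2O2 replicate 3. The percent of genes bounded within 1.5-fold was 45.0 with a filter that kept every gene with a count, where more scarce genes were tested, and 54.2 to 59.4 without single replicates, against 63.2. The difference in mitochondrial share moved by at most 0.414 percentage points, less than the pooled replicate SD of 0.767, and ranged from -0.782 to 0.0379 without single replicates, with a positive sign without H2O2 replicate 2. For MitoCoat-mRNA against MitoCoat, 467 calls became 865 with DESeq2, and against mitochondria 554 became 909 with DESeq2 and 1141 with the replicate block; the cause was not tested. The number of mitochondrial mRNAs bounded within 1.5-fold was the least stable, from 2 to 8 of 13 without single replicates, 5 to 6 in the fits of DESeq2 or of all 15 samples, 8 with the widest filter and 13 with the replicate block. Of the 100 most abundant nuclear genes, 91 to 98 were bounded without single replicates, and 90 were bounded in all of those fits and the reported one. The block was run for MitoCoat-mRNA against H2O2, MitoCoat and mitochondria and not for the other contrasts.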
